A study of Mus musculus with 10 samples.

Results

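Pallial radial glia were taken from single-cell RNA sequencing of E16.5 mouse cortex, with 10 embryos in all. Of 65779 kept cells, 523 (0.795%) met their gate. The gate asked for at least 4 of the 6 radial glia genes Hes1, Hes5, Slc1a3, Sox2, Sox9 and Pax6, each with a UMI (unique molecular identifier, 1 counted RNA molecule). It also asked for no UMI of Eomes, at most 1 UMI over Dlx1, Dlx2 and Dlx5, and at most 1 UMI over Olig1 and Olig2. Fewer than 4 of the 7 mitotic genes Top2a, Ube2c, Cenpf, Cdc20, Ccnb1, Cenpe and Tpx2 could be detected. The members were thus selected on measured UMIs, and the levels of the 19 genes of the gate are given without a test. Exactly 4 radial glia genes were found in 142 of the gated cells, while 726 cells with 3 of them met every other condition. Exactly 3 mitotic genes were found in 58 gated cells, and 50 cells with 4 were otherwise within the gate. A further 61 cells failed only by a single Eomes UMI.

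The embryos were 3 wild type (WT), 4 heterozygous (Het) and 3 homozygous (KO) for the Gatad2b stop allele, with 1 library per embryo. The stop allele carries a trapping cassette in an intron of Gatad2b (GRCm38, chromosome 3, 90293178 to 90363407, plus strand), in every tissue of the embryo, on a C57BL/6N-Atm1Brd background. The gate held 63, 55 and 60 cells in the WT embryos, 55, 34, 45 and 68 in the Het embryos and 60, 30 and 53 in the KO embryos. KO 2 and Het 2 were thus the thinnest samples, with 496800 and 527327 UMIs in all. Library names carried 1 of 2 prefixes, whose meaning the labels do not give. WT 1 to 3 and Het 4 shared the first, and Het 1 to 3 and KO 1 to 3 the second. In KO vs WT, genotype and prefix therefore cannot be told apart, and KO against Het 1 to 3, which share a prefix, is given beside the genes called in KO vs WT. No gated barcode occurred in more than 1 library. The median depth of the gated cells of an embryo lay at 14687 to 15081.5 UMIs for WT embryos, at 13939 to 18591 for Het embryos and at 16199.5 to 17986 for KO embryos.

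Radial glia are the stem cells of the developing brain. Their cell bodies line the ventricle and their fibres reach the surface of the brain. In the pallium, the dorsal part that becomes the cortex, they renew themselves and give rise to neurons, often through Eomes-positive intermediate progenitors, and late in gestation they turn to making astrocytes. Gatad2b is a subunit of NuRD, a complex that joins a chromatin remodeling ATPase to histone deacetylases and mainly represses transcription.

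Genes outside the gate were used to check the label. Vim, an intermediate filament of radial glia, was detected in a median of 94.2% of the gated cells of an embryo, Fabp7, a fatty acid binding protein, in 95.3%, and Ptprz1, a receptor phosphatase, in 91.9%. In the other kept cells, the medians were 38.7%, 39.2% and 67.1%. In the Eomes-positive cells they were 73.5%, 88.9% and 56.1%, and in the mitotic cells of the same gate 100%, 96.0% and 97.3%. Fabp7 thus hardly set the gated cells apart from the Eomes-positive cells. None of these genes set them apart from the mitotic cells. Markers of the pallium were less evenly found. The cortical factor Lhx2 was found in 91.1% of the gated cells, whereas Emx2 was found in 57% and Emx1 in 37.2% (Eomes-positive cells, 76.7%). In the other kept cells, Lhx2 was found in 52.8%, Emx2 in 16.0% and Emx1 in 34.7%. Emx1 was thus hardly more frequent in the gate than outside it. Gsx2, a factor of subpallial progenitors, was found in 12.2% of the gated cells, 0.295% of the Eomes-positive cells and 2.21% of the other kept cells. It was thus more frequent in the gate than outside it. Over the embryos, 58.5% to 85.5% of the gated cells held a UMI of Emx1 or Emx2, and 6.35% to 17.0% held a UMI of Gsx1, Gsx2 or Nkx2-1. Neither was found in 9.09% to 36.5%, and the region of those cells was not detectable at this depth.

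A list of 18 radial glia identity genes outside the gate held more UMIs than any of 8 lists of other cell types in 444 of the 523 cells (84.9%). The excitatory neuron list led in 67 cells, namely 2, 7 and 5 in the WT, 7, 4, 13 and 4 in the Het and 12, 5 and 8 in the KO embryos. The choroid plexus list led in 9 cells, and these 9 were all in WT 1, where the list summed to 72957 CPM (UMIs of a gene or list per 1000000 UMIs) against 51.5 and 58.5 CPM in WT 2 and WT 3 and 3.55 to 37.4 CPM in the mutants. The erythroid list led in 2 cells, both in Het 3, and the endothelial list in 1 cell, in WT 3. The interneuron, microglia, mural and oligodendrocyte precursor lists led in no gated cell. Among the microglia markers, Cx3cr1 was at 0 in every gated cell. Cells scored as likely doublets made up 14.3% to 16.7% of the gated cells of the WT embryos, against 6.67% to 12.7% for Het and 5% to 6.67% for KO. The number marked was set by the size of each library, at 0.8% per 1000 barcodes, and was 7.42% to 8.31% of all kept cells for WT, 5.2% to 7.46% for Het and 4.8% to 5.85% for KO, whereas the caller's own threshold marked 0.0325% to 2.49%. The order of the groups is thus partly fixed by the number of barcodes. Gene levels and shares were also computed on the 444 cells led by their own list, and these values are called those of the 444 cells. Since the UMIs of these lists chose the 444 cells, levels of list members there are a description only.

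**Figure D1:**
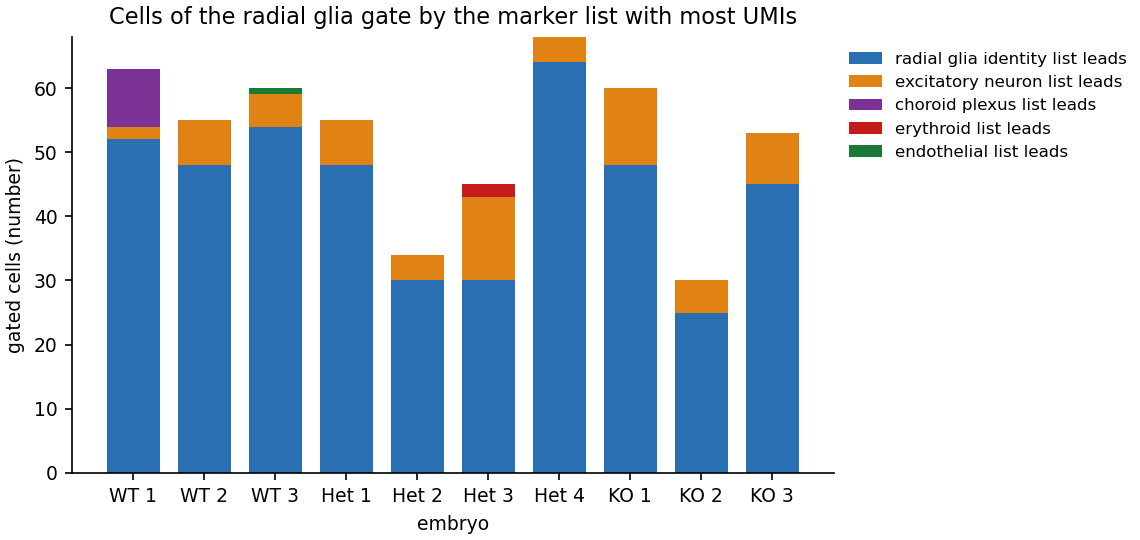
Number of gated cells (y axis) in each of the 10 embryos (x axis), coloured by the marker list that held the most UMIs in a cell. The radial glia identity list led in 444 of 523 cells, the excitatory neuron list in 67, and the 9 cells led by the choroid plexus list were all in WT 1.

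Among all kept cells, no difference in the share of radial glia beyond the spread of the embryos was found. They made up 0.777%, 0.768% and 0.769% of the kept cells in the WT embryos. In the Het embryos the shares were 0.941%, 0.553%, 0.802% and 0.859%, and in the KO embryos 1.02%, 0.583% and 0.858%. The mutant groups spread on both sides of WT. The difference was 0.050 percentage points in KO vs WT (exact permutation test, two-sided, p = 0.70, adjusted p = 0.886 over 6 comparisons) and 0.017 in Het vs WT (exact p = 0.886, adjusted p = 0.886). The 95% Wilson interval of a single share was at widest 0.796% to 1.31% (KO 1), for counting error only.

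Among the gated pallial progenitors, that is radial glia, Eomes-positive cells and the mitotic cells of the same gate, radial glia took a smaller share in every mutant embryo than in any WT embryo. The shares were 14.1%, 12.8% and 14.0% in the WT embryos, 9.72%, 8.61%, 10.8% and 10.7% in the Het embryos and 9.97%, 7.03% and 8.07% in the KO embryos. WT therefore did not overlap with either mutant group, while Het and KO overlapped. The mean was 13.6% ± 0.730 (SD, n = 3) in WT, 9.96% ± 1.03 (n = 4) in Het and 8.35% ± 1.49 (n = 3) in KO. The difference was -3.64 percentage points in Het vs WT (exact permutation p = 0.0286, the smallest that 3 against 4 embryos allow; adjusted p = 0.171) and -5.25 in KO vs WT (exact p = 0.10, the smallest that 3 against 3 allow; adjusted p = 0.286). KO and Het differed by -1.61 points (exact p = 0.143, adjusted p = 0.286). None of the 6 comparisons of shares passed after adjustment. All classes in this share are set by UMIs of genes of the gate. Among these are Hes5 and Slc1a3, which had lower means in KO than in WT. How many cells left the gate for that reason was not tested, so the p-values concern gated classes only. With the first prefix alone, Het 4 stood at 10.7% against 12.8% to 14.1% in WT. Among all kept cells, Eomes-positive cells made up 4.29% to 4.82% for WT, 5.41% to 7.86% for Het and 6.92% to 8.57% for KO, so that both mutant groups lay above WT. The mitotic cells made up 0.346% to 0.436%, 0.41% to 0.89% and 0.797% to 1.21%, with Het overlapping WT and KO. The other classes were thus larger in the KO embryos, while the share of radial glia among kept cells spread on both sides of WT. With the radial glia limited to the 444 cells and the other progenitors left as they were, both mutant groups again lay below WT, at 5.92% to 8.14% in KO and 7.50% to 10.1% in Het against 11.3% to 12.8% in WT. The separation did not hold with at least 3 of 6 radial glia genes. Het 3 (24.4%) then lay above WT 2 (22.80%), and KO 1 (22.77%) was level with it.

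The mitotic cells of the same gate were counted beside the radial glia. This measure was added after the data had been seen and rests on mitotic genes of the gate, so it is given without a test. Of all cells with radial glia genes and without Eomes, mitotic cells made up 30.8%, 36.0% and 36.2% in the WT embryos, 48.6%, 45.2%, 33.8% and 44.7% in the Het embryos and 54.2%, 57.7% and 58.6% in the KO embryos. The KO embryos were above every other embryo, and Het overlapped with WT. With both classes limited to cells led by the radial glia identity list, the shares were 32.5% to 38.6% for WT, 41.2% to 51.5% for Het and 58.3% to 62.5% for KO, without overlap. When each cell was thinned to 5000 UMIs, the WT embryos had shares of 25.6% to 38.0%, the Het embryos of 28.1% to 38.8% and the KO embryos of 44.8% to 46.9%.

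**Figure D2:**
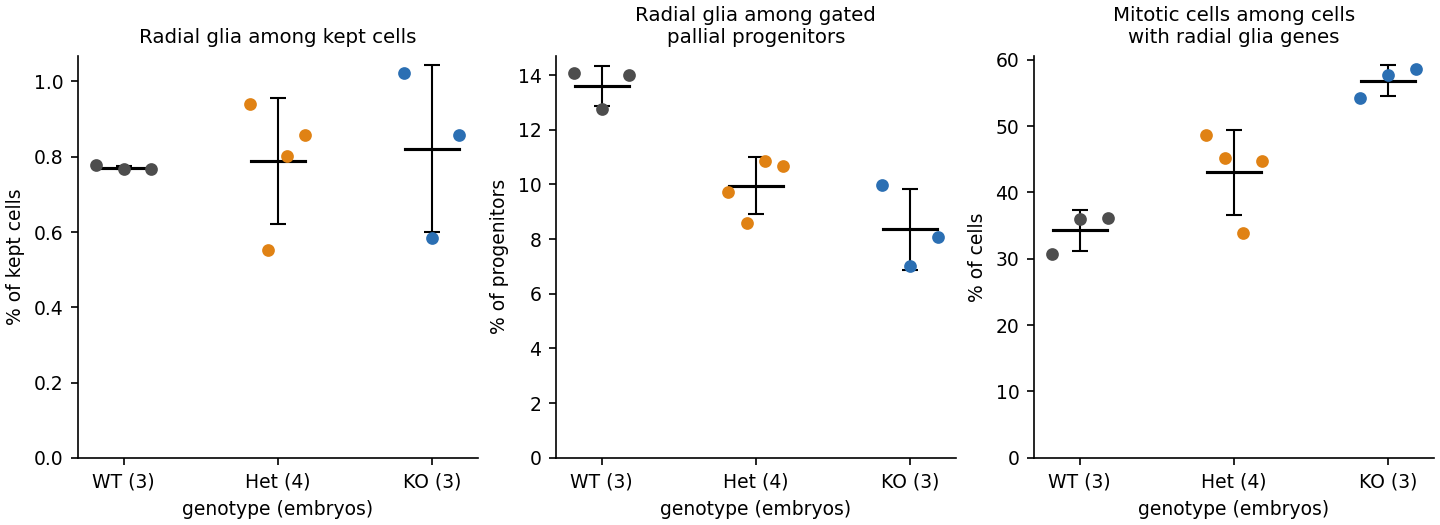
Share of radial glia among kept cells (left) and among gated pallial progenitors (middle), and share of mitotic cells among the cells with radial glia genes (right), all in percent, for each embryo (points) by genotype (x axis), with the mean (line) and SD (bars). Radial glia among progenitors lie at 12.8% to 14.1% in WT and at 7.03% to 10.8% in the mutants, and the mitotic share lies at 54.2% to 58.6% in KO and at 30.8% to 48.6% in the other embryos.

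UMIs of the radial glia were summed per embryo and 9882 genes were tested. Calls needed an adjusted p below 0.05 together with a log2 fold change beyond 0.25 in either direction. In KO vs WT, 365 genes were called (3.69%), of which 187 were higher in KO (1.89%) and 178 lower (1.8%). All expressed genes entered the fit, and 2 genes of the gate, Hes5 and Slc1a3, are among the 178, where they are no result. The median log2 fold change of all genes was -0.0095. With DESeq2, 355 genes were called. With the prefix as a covariate, edgeR called 0 genes, with 786 at an unadjusted p under 0.05 (2005 without the covariate). In that fit the prefix effect rests on Het 4 alone against Het 1 to 3, so the count cannot tell genotype and prefix apart. Its log2 fold changes were -1.40 for Gatad2b, -1.93 for Slc1a2, 0.15 for Nfia and 0.08 for Nfib. Other genes moved both ways. Changes were smaller than without the covariate for, among others, Ptprz1 (-0.42), Clu (-0.69), Mfge8 (-0.48), Cdk2ap1 (0.31) and Insm1 (0.37). They were larger for, among others, Gfap (-2.89), Tnc (-1.36) and Id1 (-2.48). Without KO 2, WT 3, KO 1, KO 3 or WT 2, the count of 365 became 46, 92, 118, 136 and 213. Without the marked doublets it became 631 of 9202 genes, and without Het 4 it became 465 of 9778. Among the 444 cells, 262 genes were higher in KO (2.93% of those tested) and 250 lower (2.79%), and 284 of these were among the 365.

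Gatad2b itself was measured at 116, 119.5 and 116 CPM in the WT embryos, 95.5, 128, 75 and 79.1 CPM in the Het embryos and 59.1, 42.8 and 57.9 CPM in the KO embryos. The WT embryos did not overlap with the KO embryos, while Het 2 lay above WT and the other Het embryos below it. The log2 fold change in KO vs WT was -1.10 ± 0.19 (SE; adjusted p = 0.00943). In Het vs WT it was -0.33 ± 0.17 (adjusted p = 0.495), and in KO against Het 1 to 3 -0.84 (adjusted p = 0.255). The assay counts 3′ ends, so the UMIs that remained in KO do not show whether the transcripts were full length. Of the 16 NuRD subunit genes, all 16 were tested. The 1 called lower (1.8% of all genes were) was Gatad2b. It is the gene with the stop allele, so its call is no result about the list. Called higher were 2, against 1.89% of all genes. Cdk2ap1 (DOC1), a small subunit of the complex, was at 64.8, 98 and 82.2 CPM in the WT embryos, 159, 161, 169 and 84.6 CPM in the Het embryos and 186, 235 and 169.7 CPM in the KO embryos. Its log2 fold change was 1.25 ± 0.23 (adjusted p = 0.0102), and Het 4 lay with the WT embryos and apart from Het 1 to 3. The other was Mta1, a scaffold subunit, with 0.75 ± 0.19 (adjusted p = 0.0402). The paralog Gatad2a (0.31 ± 0.21, adjusted p = 0.436) and the ATPase Chd4 (-0.20 ± 0.13, adjusted p = 0.424) were not called. KO against Het 1 to 3 gave 0.24 for Cdk2ap1 and 0.22 for Mta1 (adjusted p of 0.781 to 0.869). With single embryos left out, the adjusted p rose above 0.05 for Gatad2b without KO 2 (up to 0.0523), Cdk2ap1 without KO 2 (up to 0.0664) and Mta1 without WT 1, WT 2, WT 3, Het 3, KO 2 or KO 3 (up to 0.156).

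Many, but not all, genes of the astrocyte lineage list were lower in KO radial glia. Of the 19 genes in the gliogenic and astrocytic list, 17 were tested in KO vs WT, of which 7 fell and 2 rose, against 1.8% and 1.89% of all genes. The median log2 fold change of the list was -0.98, beside -0.0095 over all genes. The 7 that fell were Slc1a2, Apoe, Gfap, Sparcl1, Clu, Tnc and Bcan. These 7 were also called lower in the 444 cells, with a list median of -0.78. Those 444 cells still held UMIs of other cell types that differed in the same direction. The mural list was 109.5 to 277 CPM for WT, 67.6 to 118 for Het and 24.5 to 50.7 for KO, the choroid plexus list 45.6 to 84.7, 26.1 to 52.8 and 3.46 to 17.3 CPM, and the erythroid list 111 to 126, 47.7 to 68.8 and 39.5 to 48.4 CPM. Their part in the result was not tested.

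Slc1a2, the main glutamate transporter of astrocytes, was at 188, 304 and 217 CPM in the WT embryos, 114, 127, 141 and 134 CPM in the Het embryos and 68.3, 12.8 and 75.5 CPM in the KO embryos. The 3 genotypes did not overlap, with Het between WT and KO. Its log2 fold change in KO vs WT was -2.03 ± 0.30 (adjusted p = 0.00434). Apoe, the main lipid carrier that astrocytes secrete, was at 1670.5, 1553 and 1631 CPM in the WT embryos, 641, 833, 1077 and 1152 CPM in the Het embryos and 493, 291 and 650.2 CPM in the KO embryos. Every mutant embryo was below every WT embryo, Het 4 with the prefix of WT included, while the lowest Het embryo and KO 3 overlapped. The log2 fold change was -1.74 ± 0.23 (adjusted p = 0.003). Within the second prefix, KO against Het 1 to 3 gave -1.12 (adjusted p = 0.313) for Slc1a2 and -0.80 (adjusted p = 0.313) for Apoe. Both genes stayed past the threshold with every single embryo left out.

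Tnc (tenascin-C), a matrix protein of radial glia and astrocytes, was at 317, 538 and 446 CPM in the WT embryos, 228, 349, 186 and 234 CPM in the Het embryos and 214, 167 and 159 CPM in the KO embryos. The KO and WT embryos were apart, with a log2 fold change of -1.26 ± 0.22 (adjusted p = 0.00847). Gfap, the intermediate filament of mature astrocytes, was low throughout, at 13, 19.4 and 15.5 CPM in the WT embryos, 16.4, 11.3, 12.1 and 8.28 CPM in the Het embryos and 5.54, 0 and 2.94 CPM in the KO embryos, and changed by -2.17 ± 0.52 (adjusted p = 0.0317). Clu (clusterin), a secreted chaperone, was at 449.8, 187 and 215 CPM in the WT embryos, 118, 136, 131 and 214 CPM in the Het embryos and 104, 92 and 115 CPM in the KO embryos and changed by -1.44 ± 0.29. WT 1, the embryo with the choroid plexus cells, had the highest Clu value, and in the 444 cells the change was -0.86 (adjusted p = 0.00182). Sparcl1, a secreted synapse-promoting protein, was at 182, 248 and 393 CPM in the WT embryos, 62.6, 149, 57.6 and 115 CPM in the Het embryos and 141, 27.8 and 100 CPM in the KO embryos, a change of -1.50 ± 0.39. Bcan (brevican), a matrix proteoglycan, was at 78.8, 85.1 and 127 CPM in the WT embryos, 70.5, 83.1, 52.3 and 65.3 CPM in the Het embryos and 38.8, 32.1 and 60.8 CPM in the KO embryos, a change of -1.09 ± 0.24. For Clu, Sparcl1 and Bcan the KO embryos lay below the WT embryos, while Het overlapped with WT or KO. Within the second prefix, the log2 fold change of KO against Het 1 to 3 was -0.47 for Tnc, -1.96 for Gfap, -0.29 for Clu, 0.20 for Sparcl1 and -0.58 for Bcan (adjusted p of 0.313 to 0.947). With single embryos left out, the adjusted p rose above 0.05 for Tnc without KO 2 (up to 0.0557), Gfap without WT 2, WT 3, KO 1, KO 2 or KO 3 (up to 0.104), Clu without KO 1, KO 2 or KO 3 (up to 0.0942), Sparcl1 without WT 2, WT 3, KO 1, KO 2 or KO 3 (up to 0.17) and Bcan without WT 3, KO 1 or KO 2 (up to 0.112).

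Nfia and Nfib, the nuclear factors that start gliogenesis and are also active in young neurons, were the 2 that rose. Nfib was at 1076, 1373 and 1291 CPM in the WT embryos, 2274, 1760.1, 1936 and 1327 CPM in the Het embryos and 2013, 2032 and 1912 CPM in the KO embryos, and Nfia changed by 0.53 ± 0.12 (adjusted p = 0.0279) against 0.67 ± 0.16 (adjusted p = 0.0288) for Nfib. For Nfib, Het 4 lay within the WT embryos and Het 1 to 3 near KO, so its values followed the prefix. For Nfia, Het 4 was at 553.6 CPM, above the WT embryos (452.8 to 538 CPM). Het 1 to 3 were at 711 to 735.5 CPM, near KO (678 to 747 CPM). Within the second prefix, KO against Het 1 to 3 gave 0.00 for Nfia and -0.01 for Nfib (adjusted p of 0.993 to 0.999), and in the 444 cells KO vs WT gave 0.23 (adjusted p = 0.408) for Nfib and 0.21 (adjusted p = 0.311) for Nfia. With single embryos left out, the adjusted p rose above 0.05 for Nfia without WT 1, WT 3, KO 1, KO 2 or KO 3 (up to 0.0977) and Nfib without WT 1, WT 3, KO 1, KO 2 or KO 3 (up to 0.114). Aqp4, the water channel of astrocyte endfeet, did not pass (-0.98 ± 0.42, adjusted p = 0.199), nor did Zbtb20, an astrocyte factor (-0.19 ± 0.13, adjusted p = 0.462).

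**Figure D3:**
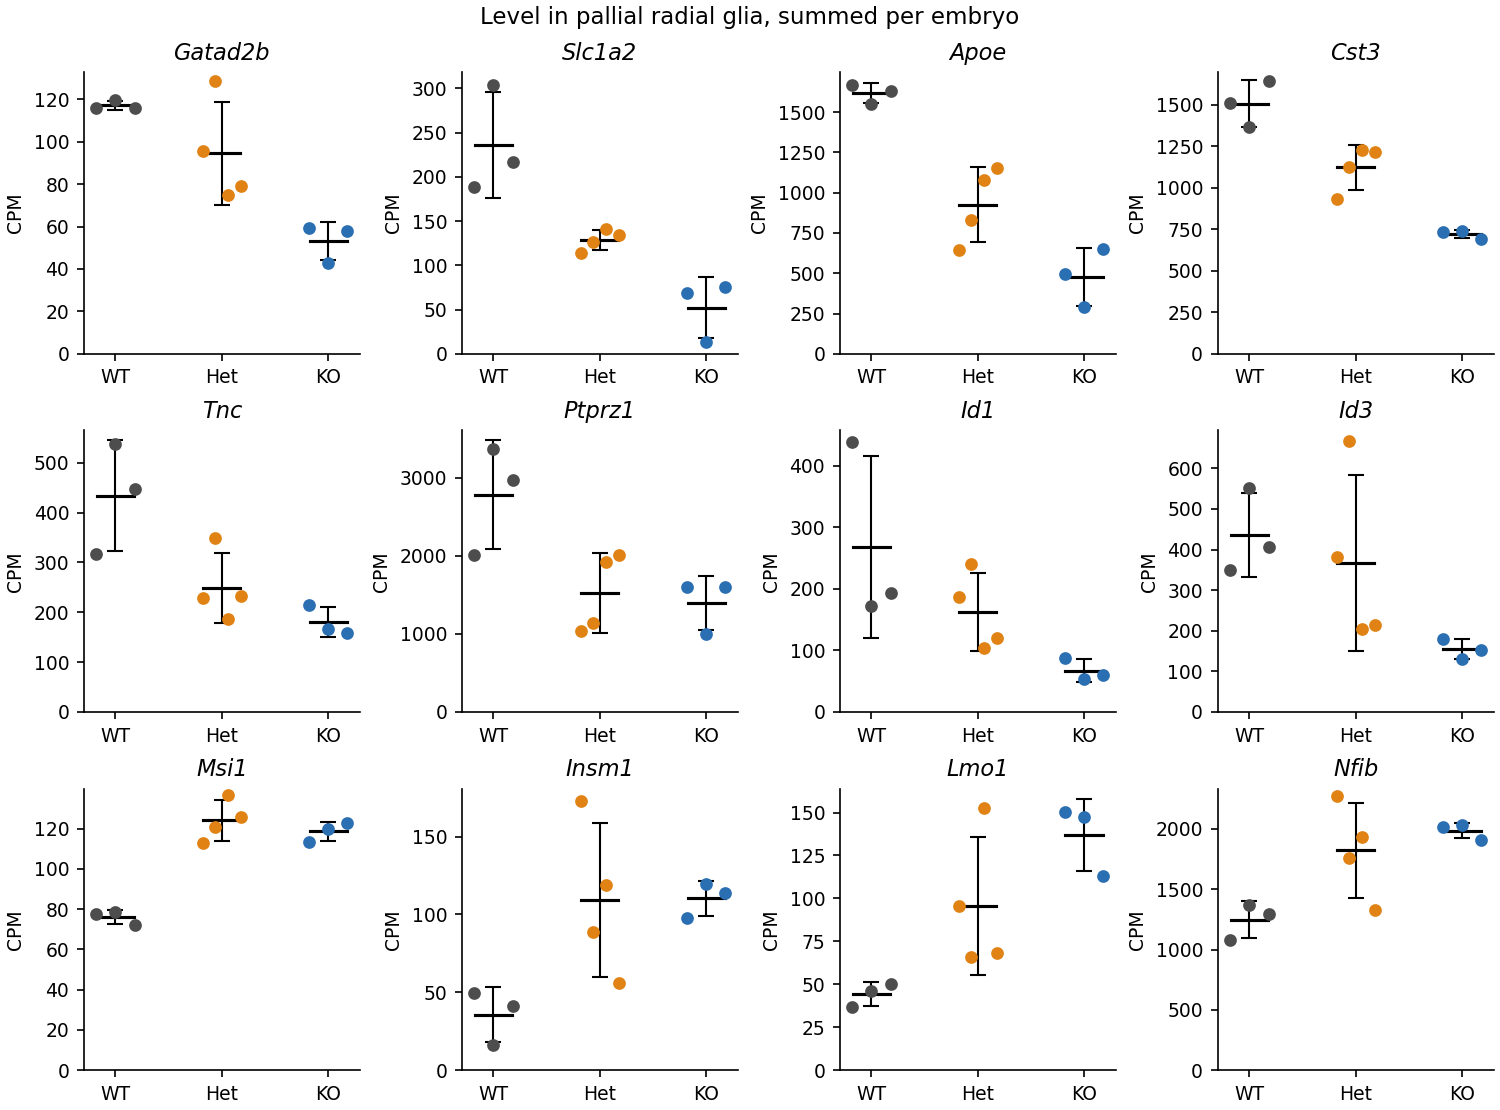
Level in CPM (y axes from 0) of 12 genes in the summed pallial radial glia of each embryo (points) by genotype, with the mean (line) and SD (bars). Slc1a2 and Cst3 are lower in Het than in WT and lower again in KO without overlap, Msi1 is higher in every mutant embryo than in WT, and Het overlaps with KO for Apoe and Msi1 and with WT or KO for Nfib, Insm1, Id1 and Id3.

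Genes of general radial glia identity were called in both directions. Of 18 identity genes tested, Msi1 rose and Ptprz1, Mfge8 and Glul fell, against 1.89% and 1.8% of all genes, with a list median of -0.05. Mfge8, a secreted adhesion protein, was at 419, 539 and 599.9 CPM in the WT embryos, 333, 351, 415 and 522 CPM in the Het embryos and 285, 216 and 274 CPM in the KO embryos and changed by -0.99 ± 0.18 (adjusted p = 0.00943). Ptprz1, the receptor phosphatase, was at 2009.5, 3367 and 2975 CPM in the WT embryos, 1034, 1135, 1919.9 and 2013 CPM in the Het embryos and 1595, 997 and 1606 CPM in the KO embryos. The WT embryos were the highest 3 except that Het 4 (2013 CPM) was level with WT 1, and the change was -0.99 ± 0.26 (adjusted p = 0.0435). Glul, the glutamine synthetase, changed by -0.84 ± 0.20 (adjusted p = 0.0353). Msi1 (Musashi), an RNA-binding protein of neural stem cells, rose by 0.64 ± 0.13 (adjusted p = 0.0207). It had 77.8, 78.6 and 72.1 CPM in the WT embryos, 113, 121, 137 and 126 CPM in the Het embryos and 114, 119.8 and 123 CPM in the KO embryos, so that every mutant embryo, Het 4 included, was above every WT embryo. Vim (0.55 ± 0.16, adjusted p = 0.0707), Fabp7 (-0.31 ± 0.18, adjusted p = 0.345) and Aldoc (-0.55 ± 0.18, adjusted p = 0.102) were not called. KO against Het 1 to 3 gave -0.49 for Mfge8, 0.04 for Ptprz1, -0.41 for Glul and -0.06 for Msi1 (adjusted p of 0.313 to 0.986). The adjusted p rose above 0.05 for Mfge8 without KO 2 (up to 0.0661), Ptprz1 without WT 2, WT 3, KO 1, KO 2 or KO 3 (up to 0.195), Glul without WT 1, WT 2, WT 3, KO 1, KO 2 or KO 3 (up to 0.14) and Msi1 without WT 3, KO 1, KO 2 or KO 3 (up to 0.0788).

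Among the genes of the gate, which are given without a test, Hes5, a Notch target that keeps progenitors undifferentiated, was at 393, 569.6 and 519 CPM in the WT embryos, 337, 500.5, 469 and 570.1 CPM in the Het embryos and 289.8, 308 and 336 CPM in the KO embryos. Slc1a3, the glutamate transporter of radial glia, was at 743, 1034 and 971 CPM in the WT embryos, 512, 597, 679 and 696 CPM in the Het embryos and 508, 406 and 529.6 CPM in the KO embryos. Both had lower means in KO than in WT. Sox2 had means of 462 ± 59.6 CPM (SD) in WT and 476 ± 29.3 CPM in KO, Sox9 of 528 ± 57 and 542 ± 52.1, Pax6 of 161 ± 6.49 and 209 ± 41.6 and Hes1 of 158 ± 71.2 and 117 ± 3.1.

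Basal radial glia are a subtype that has left the ventricle. Of 9 genes listed for them, 5 were tested, and 2 fell, against 1.8% of all genes (Ptprz1 and Tnc, which are also in the lists above). Hopx, a gene used to mark them, was found in a median of 48.0% of the gated cells and 73.1% of the mitotic cells. It thus did not single out a subtype here, and its level is no measure of basal radial glia. Hopx was at 141, 217 and 119 CPM in the WT embryos, 223, 319, 117 and 77.2 CPM in the Het embryos and 102, 178 and 135 CPM in the KO embryos. The groups overlapped broadly (-0.24 ± 0.39, adjusted p = 0.793).

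Among Notch genes, the receptors and the ligands with their modifiers held no called gene (3 and 10 tested with edgeR, 0 and 3 at an unadjusted p under 0.05, 0 and 0 with DESeq2). Notch1 was at 190.0 ± 28.3 CPM (SD, n = 3) in WT and 186 ± 19.3 CPM (n = 3) in KO. Of 12 genes tested from the effector list, 7 had a positive and 5 a negative log2 fold change, with a list median of 0.01. The called ones were Id1 and Id3, which fell, against 1.8% of all genes. These proteins bind and block proneural factors and also respond to BMP signals, so their levels alone do not measure Notch output. Id1 was at 438, 172 and 194 CPM in the WT embryos, 187, 239.8, 103 and 120.5 CPM in the Het embryos and 87.7, 53.5 and 60.8 CPM in the KO embryos, with a log2 fold change of -1.95 ± 0.36 (adjusted p = 0.0102), and Id3 at 350.1, 552 and 405 CPM in the WT embryos, 383, 667, 204 and 214 CPM in the Het embryos and 180.0, 130.4 and 153 CPM in the KO embryos, with -1.47 ± 0.34 (adjusted p = 0.0284). The KO embryos were below every other embryo for both genes. Het 1 and Het 2 were high and Het 3 and Het 4 low, on either side of the prefix. KO against Het 1 to 3 gave -1.34 (adjusted p = 0.139) for Id1 and -1.39 (adjusted p = 0.146) for Id3. WT 1 had the highest Id1 value, and in the 444 cells the change was -1.05 (adjusted p = 0.0165). Id4, a related gene, had 0.52 ± 0.16 (adjusted p = 0.0843) and passed in the 444 cells, with 0.57 (adjusted p = 0.0484). The adjusted p rose above 0.05 for Id1 without KO 2 or KO 3 (up to 0.0701) and Id3 without WT 2, WT 3, KO 1, KO 2 or KO 3 (up to 0.131).

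Of 12 neurogenic priming genes tested, 2 rose, Insm1 and Elavl4, against 1.89% of all genes, and the list median was 0.83. Insm1, a zinc finger factor of cells leaving the ventricle, was at 49.9, 16.1 and 41.1 CPM in the WT embryos, 173, 88.8, 119 and 56.1 CPM in the Het embryos and 97.8, 119.8 and 114 CPM in the KO embryos. Its log2 fold change was 1.60 ± 0.37 (adjusted p = 0.0284), and Het 1 to 3 lay at 88.8 CPM and above, close to KO. Elavl4, a neuronal RNA-binding protein, changed by 1.15 ± 0.24 (adjusted p = 0.0207). Neurog2, the proneural factor of the pallium, was at 47.4 ± 5.44 CPM (SD) in WT and 62.4 ± 11 CPM in KO (adjusted p = 0.408). In the 444 cells the list median was 0.24 over 10 genes, and neither gene passed, with 1.28 (adjusted p = 0.0997) for Insm1 and 0.16 (adjusted p = 0.792) for Elavl4. The excitatory neuron list, whose cells made up 3.17% to 12.7% of the gate in WT and 15.1% to 20.0% in KO, was 1466 to 2259.8 CPM in WT and 1838 to 2435 CPM in KO. Of its 10 genes tested, Tbr1 rose (1.33 ± 0.34) and Mapt fell (-0.99 ± 0.22). The neuron list thus overlapped between WT and KO, and in the 444 cells it was 1032 to 1173 CPM in WT and 199 to 1195 CPM in KO. There Tbr1 had 0.64 and Mapt -1.10, as a description only, since their list helped to choose these cells. KO against Het 1 to 3 gave -0.28 for Insm1, 0.48 for Elavl4, 0.60 for Tbr1 and -0.45 for Mapt (adjusted p of 0.593 to 0.821). Leaving out embryos ended the call for Insm1 without WT 2, WT 3, KO 1, KO 2 or KO 3 (up to 0.114), Elavl4 without KO 1, KO 2 or KO 3 (up to 0.101), Tbr1 without WT 1, WT 2, WT 3, KO 1, KO 2 or KO 3 (up to 0.136) and Mapt without WT 2, WT 3, KO 1 or KO 2 (up to 0.112).

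Of 9 pallial identity genes tested, Gli3 rose, against 1.89% of all genes. Gli3, the hedgehog effector that patterns the dorsal telencephalon, was at 75.8, 116 and 90.4 CPM in the WT embryos, 88.5, 81.2, 103 and 98.4 CPM in the Het embryos and 159.7, 154 and 140.2 CPM in the KO embryos. The KO embryos were above all others (0.69 ± 0.16, adjusted p = 0.0284), and KO against Het 1 to 3 gave 0.72 (adjusted p = 0.146). Emx2, a factor graded from medial to lateral pallium, was at 89.8, 132 and 141 CPM in the WT embryos, 115, 161, 67 and 97.5 CPM in the Het embryos and 62.8, 68.4 and 90.2 CPM in the KO embryos. Its change was -0.70 ± 0.26 (adjusted p = 0.134). It was called lower in 4 of 21 alternative settings, among them the 444 cells, with -0.98 (adjusted p = 0.0127). Emx1 (0.50 ± 0.21, adjusted p = 0.193) and Lhx2 (0.20 ± 0.15, adjusted p = 0.495) were not called, and both had the opposite sign in the 444 cells, at -0.38 and -0.24. The medial pallium list had a median of -0.70 over 7 genes, with 3 at an unadjusted p under 0.05 and none called by edgeR or DESeq2. The share of gated cells with Gsx1, Gsx2 or Nkx2-1 ranged from 6.35% to 15.0% for WT, from 10.3% to 15.6% for Het and from 6.67% to 17.0% for KO. Leaving out embryos ended the call of Gli3 without WT 1, WT 3, KO 1, KO 2 or KO 3 (up to 0.115).

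Cell cycle genes that the gate did not use were higher in KO by their medians, with few calls. The gate admitted cells with up to 3 mitotic genes. Those with exactly 3 were 15 of 178 WT, 21 of 202 Het and 22 of 143 KO cells, and their part in these levels was not tested. All 20 S phase genes had a positive log2 fold change, with a median of 0.51 beside -0.0095 over all genes. None was called by edgeR or DESeq2, and 9 were at an unadjusted p under 0.05, against 20.3% of all genes. Rrm2, a subunit of ribonucleotide reductase, and Dut, the dUTPase, passed in the 444 cells, with 1.19 (adjusted p = 0.0392) and 0.65 (adjusted p = 0.0273). Of the 8 G2/M genes tested outside the gate, Ccnb2 (cyclin B2) was called higher, against 1.89% of all genes, and the list median was 0.59. Ccnb2 was at 9.97, 4.31 and 3.65 CPM in the WT embryos, 1.57, 13.2, 8.04 and 6.44 CPM in the Het embryos and 15.7, 34.2 and 26.5 CPM in the KO embryos. It was low in every embryo, highest in the KO embryos, and changed by 2.01 ± 0.53 (adjusted p = 0.0478). Mki67, the marker of cycling cells, was at 21.9, 22.6 and 21.9 CPM in the WT embryos, 19.6, 32.1, 25.5 and 27.6 CPM in the Het embryos and 40.6, 59.9 and 16.7 CPM in the KO embryos, with KO 3 below every WT embryo (0.71 ± 0.35, adjusted p = 0.265). The 13 genes of G1 and cell cycle exit had a median of 0.10, and edgeR called 0 (1 at an unadjusted p under 0.05, 1 with DESeq2). Hmgb2, a chromatin protein of proliferating cells chosen here after its values were seen, was called at 0.81 ± 0.14 (adjusted p = 0.00943). The mitotic share beside these cells, above, was higher in the same KO embryos, and its part in these levels was not tested. In KO against Het 1 to 3, the values were 1.94 for Ccnb2 and 0.59 for Hmgb2 (adjusted p of 0.172 to 0.313). Leaving out embryos ended the call for Ccnb2 without WT 2, WT 3, Het 3, KO 1, KO 2 or KO 3 (up to 0.18) and Hmgb2 without KO 2 (up to 0.0557).

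Of 18 Wnt genes tested, 1 rose, against 1.89% of all genes. It was the receptor Fzd8, which was at 34.9, 32.3 and 33.8 CPM in the WT embryos, 46.2, 49.1, 54.9 and 54.3 CPM in the Het embryos and 60, 89.8 and 52 CPM in the KO embryos (0.94 ± 0.21, adjusted p = 0.025). The mutant embryos were all above WT, Het 4 included, and KO against Het 1 to 3 gave 0.36 for Fzd8 (adjusted p = 0.786). The median of the Wnt list was -0.24. The ligand Wnt5a (-1.28 ± 0.40, adjusted p = 0.088) and the modulator Dkk3 (-0.98 ± 0.29, adjusted p = 0.0742) were not called. They were called lower in 3 and 6 of 21 alternative settings. Among these were the 444 cells, with -1.86 (adjusted p = 0.0105) for Wnt5a and -1.07 (adjusted p = 0.0213) for Dkk3. Over the 10 lists that held no called gene, 84 genes were tested, of which 21 had an unadjusted p under 0.05 in edgeR (20.3% of all genes did) and 1 was called by DESeq2. Besides the lists named above, these were FGF receptors and targets (median -0.23), apical junction, polarity and cilium genes (-0.02), early progenitor RNA-binding and HMG genes (0.31), lateral pallium genes (-0.16) and subpallial progenitor genes (0.60, over 3 genes). Leaving out embryos ended the call of Fzd8 without WT 2, WT 3, KO 1 or KO 2 (up to 0.096).

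**Figure D4:**
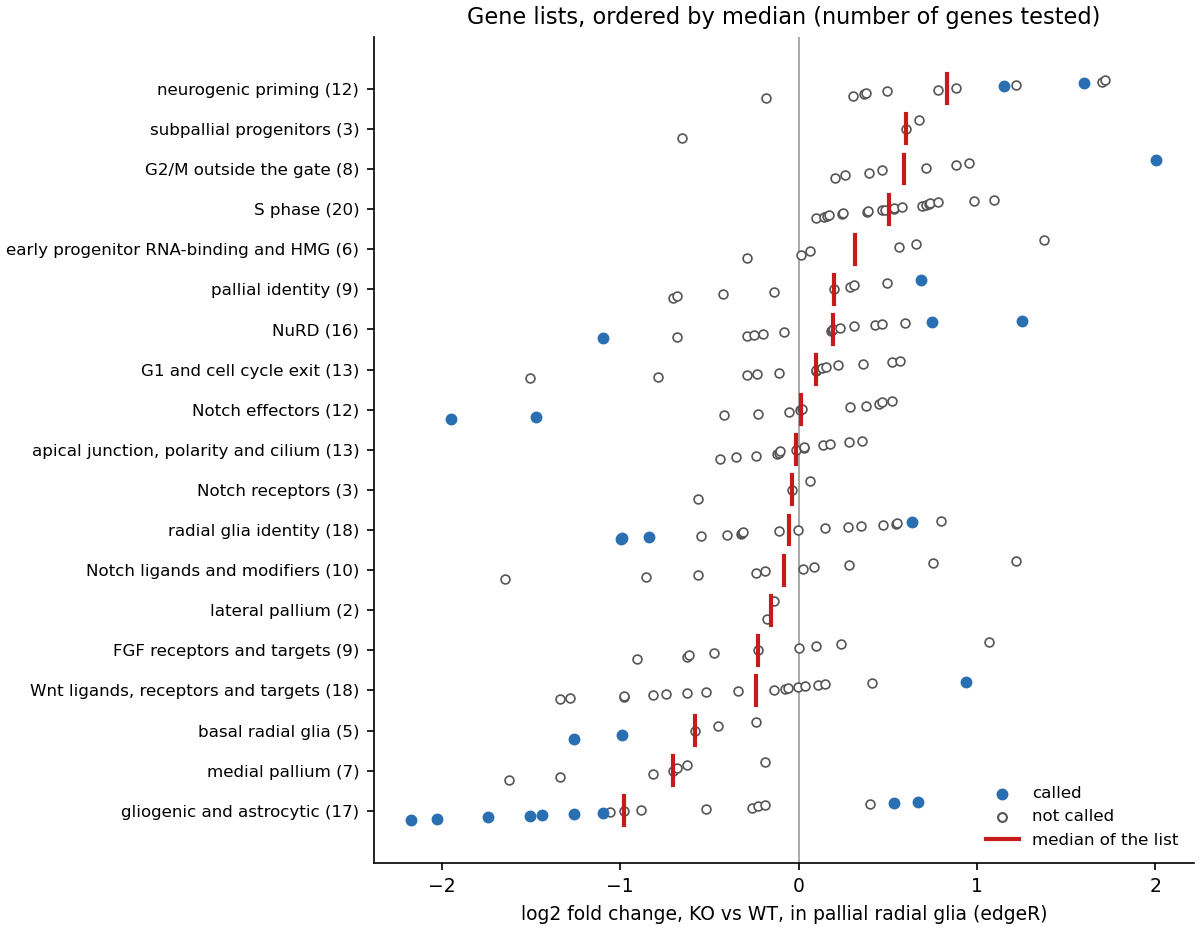
Log2 fold change in KO vs WT (x axis) of each tested gene (points) of the 19 lists (rows, with the number of genes tested), with called genes filled and the list median as a red line. The gliogenic list has the lowest median, with 7 of its 17 genes called lower, and the 20 S phase genes all lie above 0 with none called.

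The 8 largest increases and decreases among called genes at 20 CPM or more in the higher group were also read out. Those lower in KO included genes known from choroid plexus (Ttr, Enpp2) and from vessels (Col4a1, Col4a2). Enpp2 (autotaxin), strong in choroid plexus, was at 141, 23.7 and 23.7 CPM in the WT embryos, 10.2, 9.44, 1.34 and 12.9 CPM in the Het embryos and 0, 0 and 0 CPM in the KO embryos. With 0 UMIs in KO against a floor of 3 UMIs over the group (1.13 CPM), KO was at least 21.0-fold lower than the WT median. WT 1, with its choroid plexus cells, was the highest, and WT 2 and WT 3 were each above every mutant embryo. The choroid plexus list, which holds Enpp2, was at 58.5 and 51.5 CPM in WT 2 and WT 3 and at 3.55 to 14.1 CPM in KO. The part of choroid plexus RNA in these values was not tested. Ttr (transthyretin), the choroid plexus gene, was at 78511, 9.69 and 10.0 CPM in the WT embryos, 0, 1.89, 13.4 and 0.92 CPM in the Het embryos and 0, 0 and 0 CPM in the KO embryos, so that its WT mean rests on WT 1. Against the WT median, KO was at least 8.90-fold lower. Car2, a carbonic anhydrase, was at 104 CPM in WT 1 and 14.6 to 18.3 CPM in WT 2 and WT 3, against 0.981 to 2.77 CPM in KO. Ttr, Car2 and Col4a2 were too low to be tested in the 444 cells.

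Col4a1 and Col4a2, the basement membrane collagens of vessels, were highest in WT 3 and Het 4, at 159 and 57 CPM for Col4a1. They changed by -3.15 ± 0.77 (adjusted p = 0.0361) and -4.38 ± 0.96 (adjusted p = 0.0237). The endothelial list was highest in the same WT 3 (269 CPM, with the 1 endothelial-led cell), and was 3.31 and 14.6 CPM in the other WT embryos, 3.79 to 88.7 CPM in Het and 0.887 to 2.01 CPM in KO. The mural list ranged from 81.2 to 331 CPM for WT, from 47.2 to 96.7 CPM for Het and from 18.1 to 43.4 CPM for KO, and its gene Pdgfrb was called lower (-1.65 ± 0.37, adjusted p = 0.0265). The part of vessel RNA in these values was not tested. Cavin2, a caveolar coat protein, was at 84.8, 43.1 and 36.5 CPM in the WT embryos, 32.1, 37.8, 26.8 and 27.6 CPM in the Het embryos and 2.77, 6.42 and 9.81 CPM in the KO embryos. All 3 KO embryos were below every Het and WT embryo (-3.10 ± 0.42, adjusted p = 0.003), and KO against Het 1 to 3 gave -2.33 (adjusted p = 0.113). Serpine2, a secreted protease inhibitor of glia, was at 18.9, 21.5 and 20.1 CPM in the WT embryos, 10.2, 1.89, 4.02 and 6.44 CPM in the Het embryos and 0.923, 0 and 2.94 CPM in the KO embryos (-3.60 ± 0.60, adjusted p = 0.00672). Selenop, a selenium carrier, changed by -2.83 ± 0.75 (adjusted p = 0.0474), and by -1.85 (adjusted p = 0.0982) in the 444 cells. KO against Het 1 to 3 gave -1.47 for Col4a1 and -0.17 for Pdgfrb (adjusted p of 0.379 to 0.944), and Enpp2, Ttr, Car2, Col4a2, Serpine2 and Selenop were too low to be tested there. Leaving out embryos ended the calls of Enpp2 without KO 2 (up to 0.05), Ttr without WT 1, KO 1, KO 2 or KO 3 (up to 0.131), Car2 without KO 1, KO 2 or KO 3 (up to 0.0701), Col4a1 without WT 3, KO 1, KO 2 or KO 3 (up to 0.157), Col4a2 without WT 3, KO 1, KO 2 or KO 3 (up to 0.105), Selenop without WT 2, WT 3, KO 1, KO 2 or KO 3 (up to 0.202) and Pdgfrb without WT 3, KO 1, KO 2 or KO 3 (up to 0.112).

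On the other side, Lmo1, a LIM-only transcriptional cofactor, was at 36.9, 46.3 and 50.2 CPM in the WT embryos, 95.5, 66.1, 153 and 68 CPM in the Het embryos and 150.4, 148 and 113 CPM in the KO embryos. All mutants were above WT, with Het 4 at 68 CPM (1.61 ± 0.27, adjusted p = 0.00663), and the call held with every single embryo left out. Cdca3, which triggers mitotic entry, was at 9.97, 7.54 and 7.3 CPM in the WT embryos, 10.2, 11.3, 6.7 and 12.9 CPM in the Het embryos and 24.9, 42.8 and 29.4 CPM in the KO embryos (1.90 ± 0.33, adjusted p = 0.00943). Scrt2, a neuronal zinc finger repressor, changed by 1.91 ± 0.46, Cabp1, a calcium-binding protein of neurons, by 1.86 ± 0.39, and Frat2, a Wnt pathway activator, by 1.44 ± 0.32. Scrt2 and Cabp1 were too low to be tested in the 444 cells, and Frat2 had 1.72 (adjusted p = 0.00423) there. The non-coding AY036118, whose sequence resembles ribosomal RNA, was at 428, 338 and 325 CPM in the WT embryos, 738, 1092, 1216 and 363 CPM in the Het embryos and 1114, 1206 and 988 CPM in the KO embryos. Het 4 lay with WT and Het 1 to 3 with KO, so its values followed the prefix, and its reads may be shared with near-identical copies. In KO against Het 1 to 3, the log2 fold changes were 0.35 for Lmo1, 1.69 for Cdca3, 0.29 for Scrt2, 0.85 for Cabp1, 0.23 for Frat2 and 0.11 for AY036118 (adjusted p of 0.146 to 0.921). Leaving out embryos ended the calls of Cdca3 without KO 2 (up to 0.05), Scrt2 without WT 1, WT 2, WT 3, KO 1, KO 2 or KO 3 (up to 0.131), Cabp1 without WT 3, KO 1, KO 2 or KO 3 (up to 0.0772), Frat2 without WT 2, WT 3, KO 1 or KO 2 (up to 0.114) and AY036118 without WT 3 or KO 2 (up to 0.0676).

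In the comparisons with Het, the number of called genes depended on the setting. In Het vs WT, edgeR called 0 of 9882 genes (0%), with 1081 at an unadjusted p under 0.05. DESeq2 called 30 and gave an adjusted p to only 876 genes. Without Het 4 edgeR called 35 of 9778, and without the marked doublets 97 of 9202. With the replicate number as a block it called 50 of 9882, and without the filter on low counts 406 of 18262. In KO vs Het it called 0 (0%), with 636 at an unadjusted p under 0.05, and 67 of 18262 without the filter. DESeq2 called 7 there, with an adjusted p for 685 genes. Within the second prefix edgeR called 0 of 8807, with 633 at an unadjusted p under 0.05. In the 444 cells, a set chosen after the data had been seen, Het vs WT had 7 called genes (0.0782%). There 21 were called between KO and Het (0.235%), Het 4 with the prefix of WT included, or 9 with KO and Het 1 to 3 alone (0.117%). The 21 include Hes5, a gene of the gate, which is no result. Among them were also genes named above, with log2 fold changes of -1.24 for Slc1a2 (adjusted p = 0.0387), -0.99 for Apoe (adjusted p = 0.0387), -1.26 for Id1 (adjusted p = 0.0355), -2.34 for Cavin2 (adjusted p = 0.0347), -2.14 for Wnt5a (adjusted p = 0.0347), 1.21 for Lmo1 (adjusted p = 0.0347) and 1.54 for Cdca3 (adjusted p = 0.0387). In all gated cells, none of these was called in KO against Het 1 to 3. The values there were -1.12 for Slc1a2, -0.80 for Apoe, -1.34 for Id1, -2.33 for Cavin2, -1.36 for Wnt5a, 0.35 for Lmo1 and 1.69 for Cdca3. In the gliogenic list, 12 of 17 genes had an unadjusted p under 0.05 in Het vs WT, against 10.9% of all genes, and 3 were called by DESeq2, at a list median of -0.53, beside -0.0085 over all genes. In KO vs Het the median was -0.18. The comparisons share their Het or WT embryos and are not independent of KO vs WT. Cst3 (cystatin C), a protease inhibitor of astrocytes, was at 1511, 1364 and 1645 CPM in the WT embryos, 933, 1122, 1227 and 1215 CPM in the Het embryos and 732, 740.0 and 693 CPM in the KO embryos, with no overlap between genotypes. Its log2 fold changes were -0.42 ± 0.11 (adjusted p = 0.242) in Het vs WT, -0.64 ± 0.11 (adjusted p = 0.23) in KO vs Het (-0.74, adjusted p = 0.0182 in the 444 cells) and -1.06 ± 0.12 (adjusted p = 0.00107) in KO vs WT. KO against Het 1 to 3 gave -0.61 for Cst3 (adjusted p = 0.127).

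Shares of radial glia with a UMI of 4 marker genes were compared after thinning to 5000 UMIs, which left out 17 WT, 14 Het and 6 KO cells below that depth. Neurog2 was found in 12% to 15.4% of the cells of WT embryos, 11.1% to 22.6% for Het and 15.4% to 25.9% for KO. Mki67 was found in 6.78% to 10.0%, 6.06% to 11.1% and 3.85% to 13.8%, and Hopx in 26.9% to 34.0%, 22.2% to 51.5% and 25.9% to 40.7%. Without thinning, every difference between groups for Hopx changed sign, as did that for Mki67 in KO vs Het. Gfap was found in 5.77%, 6% and 8.47% in the WT embryos, in 3.51% to 6.06% in the Het embryos and in 0 of 58, 27 and 52 cells in the KO embryos. In WT and Het these were 2 to 5 cells per embryo, and the counts of 0 allow shares of up to 5.17%, 11.1% and 5.77%. Without thinning, Gfap was found in 9.52% to 15.0% of the WT, 4.44% to 18.2% of the Het and 0% to 3.77% of the KO cells (Eomes-positive cells, median 2.44%, at depths of 13659 to 17233 UMIs). Gfap gave the smallest p, in KO vs Het (exact permutation p = 0.0286, adjusted p = 0.343 over 12 comparisons, -4.92 percentage points), and no comparison passed. In KO vs WT, Gfap differed by -6.75 points (exact p = 0.10, adjusted p = 0.60).

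To ask which changes differed from those in the next cells of the lineage, KO vs WT was compared between radial glia and Eomes-positive cells of the same embryos. The test of the difference called 16 of 12574 genes (0.127%), 11 with a higher and 5 with a lower log2 fold change in radial glia. The same test for KO vs Het called 0 genes (0%), with 545 at an unadjusted p under 0.05. Without KO 2 the count of 16 became 1, without KO 3 it became 5, and without WT 2 and Het 4 it became 49 and 68. With the 444 radial glia and all Eomes-positive cells it was 78, and these included all 16.

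Levels in this comparison were scaled over both classes together, so radial glia values differ slightly from those above. The radial glia gate left out cells with 4 or more of the 7 mitotic genes, whereas Eomes-positive cells were not filtered in this way. Cdc20, a mitotic gene of the gate, was found in a median of 5.11% of the radial glia and 14.7% of the Eomes-positive cells, so genes of the cell cycle are compared between classes that differ in this respect. Cdca3 was at 9.46, 7.29 and 7.0 CPM in WT and 24.3, 40.4 and 28.5 CPM in KO radial glia, against 54.3, 66.5 and 45.4 CPM in WT and 47.8, 49 and 42.8 CPM in KO Eomes-positive cells. The Eomes-positive cells overlapped between genotypes, and the difference of log2 fold changes was 2.14 ± 0.34 (SE; adjusted p = 0.0136). Lmnb1, lamin B1 of the nuclear envelope, was at 159, 129 and 140.1 CPM in WT and 233, 362 and 292 CPM in KO radial glia, against 283, 291 and 249.6 CPM in WT and 259.8, 294 and 263 CPM in KO Eomes-positive cells. The Eomes-positive cells again overlapped, and the difference was 1.04 ± 0.15 (adjusted p = 0.0126). Dut (0.95 ± 0.15, adjusted p = 0.0136) had a lower KO level in Eomes-positive cells and a higher one in radial glia. The non-coding Gm17750 (0.99 ± 0.16, adjusted p = 0.0136) was lower in KO in Eomes-positive cells, at 97.1 against 222 CPM, and in radial glia at 238 against 276 CPM. A further 6 higher ones, named after their values were seen, were Ptma, Selenoh, H2afz, Hmgn2, Ran and Hmgb1, of which H2afz, Hmgn2 and Hmgb1 are chromatin proteins.

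In the other direction, Cst3 was at 1434, 1319 and 1577 CPM in WT and 715, 699 and 671 CPM in KO radial glia, against 334, 375 and 378 CPM in WT and 355, 331 and 324 CPM in KO Eomes-positive cells, a difference of -0.95 ± 0.14 (adjusted p = 0.0126). Bcan was at 74.8, 82.2 and 122 CPM in WT and 37.9, 30.3 and 58.9 CPM in KO radial glia, against 8.62, 8.74 and 9.07 CPM in WT and 15.1, 12.2 and 14.5 CPM in KO Eomes-positive cells, a difference of -1.76 ± 0.27 (adjusted p = 0.0126). It was thus lower in KO in radial glia and higher in KO in Eomes-positive cells, where its level was low. Slc1a4, a neutral amino acid transporter, had -1.65 ± 0.31 (adjusted p = 0.049), and Tspan7, a tetraspanin, had -0.90 ± 0.15 (adjusted p = 0.0249). For Enpp2 the fitted difference (-11.09 ± 1.83, adjusted p = 0.0265) rests on its 0 UMIs in KO radial glia and is no measure of size.

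**Figure D5:**
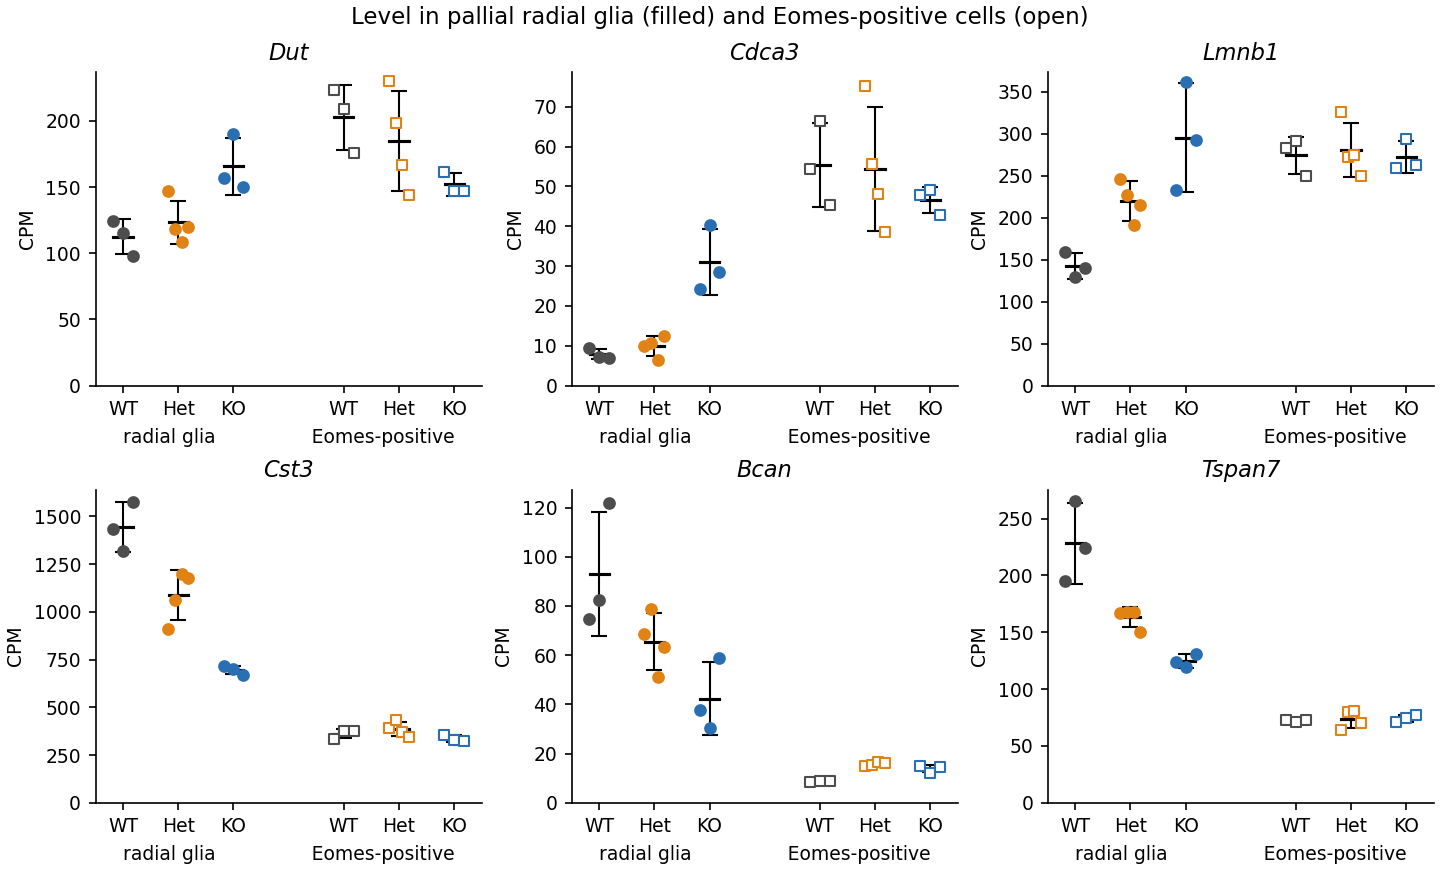
Level in CPM (y axes from 0) of 6 genes in pallial radial glia (filled circles) and Eomes-positive cells (open squares) of each embryo by genotype, with the mean (line) and SD (bars). In radial glia, WT and KO are apart for all 6 genes, higher in KO for Dut, Cdca3 and Lmnb1 and lower for Cst3, Bcan and Tspan7. In Eomes-positive cells, Dut is lower and Bcan higher in KO, and WT and KO overlap for Cdca3, Lmnb1, Cst3 and Tspan7.

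Within the class, genes were ranked by their variance over cells as a multiple of that of UMI sampling. This ratio grows with the level of a gene, so abundant genes lead the order. For Fabp7, the first, the variance was 359 times that of UMI sampling (median over embryos, 288 to 618). The other 14 of the first 15 genes were Malat1, Sox11, Tmsb4x, Dbi, Gm42418, Meg3, Apoe, Tuba1a, Ptn, Ptprz1, Basp1, Mt3, Stmn2 and Stmn1. They include glial genes (Apoe, Ptn, Ptprz1, Mt3, Dbi) and neuronal or cytoskeletal ones (Sox11, Meg3, Tuba1a, Basp1, Stmn2). In the 444 cells the ratio of Sox11, a factor of young neurons, was 14 in place of 104, and that of Fabp7 was 276. Among the glial genes, the ratio there was 38.1 in place of 48.4 for Apoe, 37 in place of 43.2 for Ptprz1, 30.0 in place of 45.8 for Ptn, 26.2 in place of 42.6 for Mt3 and 32.3 in place of 72.9 for Dbi, lower for each.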

How the data were processed

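Single-cell RNA was captured with the 10x 3′ v3 chemistry from papain-dissociated cortex, 1 library per embryo, in 10 embryos. The authors deposited matrices of raw UMI counts per gene and cell, made with Cell Ranger (6.0.2 per the labels, while the study's methods name an older version) on mm10. No cell annotation was used. Here, a barcode was kept with 1000 UMIs or more and a mitochondrial share of up to 10% (65779 of 80071), with 82872641 to 123737385 UMIs per embryo. Likely doublets, marked by Scrublet scores (scanpy 1.11.5), stayed in, and their removal was an alternative. Between 4 and 19 kept barcodes were shared by a pair of libraries.

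UMIs were summed per embryo and tested with edgeR 4.0.16 (quasi-likelihood test, TMM, low-count filter, 3 groups in 1 fit, R 4.3.3), with Benjamini-Hochberg adjustment over all genes tested. DESeq2 1.42.0 was an alternative. Differences between classes were tested as an interaction with embryo as a block. Shares were compared over embryos by exact permutation tests. The scripts were tested on simulated data. Intervals cover counting error only, and p-values the spread between embryos. The genes named were the 8 largest increases and decreases at 20 CPM or more in the higher group, the called members of the lists, and the 5 strongest interactions in each direction, and further genes named for context. The members and lists were chosen with earlier results of these data known. Some genes are not reported here and were left out of the list counts. Gene positions are from GENCODE on GRCm38.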

Additional observations from a re-analysis of the deposited data

Results flagged for a closer look

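In 6 of 70 sets of 4 Het embryos examined, 1 embryo lay apart from the other 3 by Dixon's criterion, which chance gives in about 1 of 20. Het 4, the Het embryo with the library prefix of WT, was apart in 3 of them, with Col4a2 at 39.54 CPM above the others, and Nfia at 553.6 CPM and Cdk2ap1 at 84.6 CPM below them. Het 3 was apart for Ttr, at 13.4 CPM, and Rrm2, at 21.44 CPM. Het 1 was apart for Gatad2a, at 46.98 CPM.

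The change from WT to KO differed between radial glia and Eomes-positive cells for 9 named genes. On the log2 scale, the change in radial glia was higher by 2.14 for Cdca3, 1.04 for Lmnb1, 0.99 for Gm17750 and 0.95 for Dut. The difference was -11.1 for Enpp2, which had 0 UMIs in KO radial glia, -1.76 for Bcan, -1.65 for Slc1a4, -0.95 for Cst3 and -0.90 for Tspan7. Without KO 2, 1 gene of the 16 called remained past the threshold.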

How the results depend on the processing

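The difference in the share of radial glia among kept cells changed sign with the setting. In Het vs WT it was -0.0341 points at 3000 UMIs or more, -0.0345 at 5000 UMIs or more and -0.00491 in the 444 cells, and in KO vs WT -0.00055 and -0.00040 at those depths. Leaving out single embryos gave -0.0336 to 0.0959 in Het vs WT, -0.0509 to 0.169 in KO vs WT and -0.0682 to 0.152 in KO vs Het. The share among progenitors kept its sign in each. In Het vs WT it was -4.21 points (exact p = 0.114) with 3 of 6 radial glia genes and -3.53 with the radial glia limited to the 444 cells, and -4.06 to -3.19 with single embryos left out. In KO vs WT that range was -6.06 to -4.59. In KO vs Het it was -2.41 to -0.944, and -2.18 after thinning (exact p = 0.0286). The mitotic share in KO vs Het was 15.1 points without doublets. With single embryos left out it was 10.7 to 15.6 in KO vs Het, 20.7 to 23.8 in KO vs WT and 6.91 to 11.8 in Het vs WT. Without thinning, the differences were -3.30 for Mki67 in KO vs Het, -8.99, -4.59 and 4.40 for Hopx in Het vs WT, KO vs WT and KO vs Het, and -7.70 for Gfap in KO vs Het (exact p = 0.114). With single embryos left out, the ranges in Het vs WT, KO vs WT and KO vs Het were -0.113 to 1.57, -0.679 to 4.29 and -1.33 to 3.64 for Mki67, 1.39 to 11.2, -1.99 to 5.45 and -8.68 to 1.08 for Hopx, and -2.32 to -0.966, -7.24 to -5.89 and -5.39 to -4.54 for Gfap.

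Counts of called genes in Het vs WT were 30 with DESeq2 (of 876 given an adjusted p), 406 without a filter and 97 without doublets. They were 5 with 5 of 6 radial glia genes, 5 at 5% mitochondrial UMIs and 7 in the 444 cells. In KO vs WT they were 968 without a filter, 631 without doublets and 0 with the prefix as a covariate. In KO vs Het they were 7 with DESeq2 (of 685 given an adjusted p), 67 without a filter and 1 with 5 of 6 radial glia genes. They were 21 in the 444 cells and 9 there without Het 4 and WT. Leaving out single embryos gave 0 to 35 in Het vs WT, 46 to 465 in KO vs WT and 0 to 0 in KO vs Het. The interaction gave 133 and 1 genes against all other cells, 437 and 66 without a filter and 78 and 3 in the 444 cells, for KO vs WT and KO vs Het, and 1 to 68 and 0 to 1 with single embryos left out. With the replicate number as a block, 50, 375 and 0 genes were called in Het vs WT, KO vs WT and KO vs Het. Embryos of the same number did not deviate together (correlations of -0.0901 to 0.0374), so the numbers were not taken as pairs. Genes that changed sign were Tbr1 (-0.10) and Notch1 (0.43) with the prefix as a covariate, Emx1 (-0.42) and Lhx2 (-0.30) with 5 of 6 radial glia genes, and Emx1 (-0.38), Lhx2 (-0.24) and Notch1 (0.0137) in the 444 cells. With single embryos left out, Hopx ranged from -0.42 to 0.048 and Notch1 from -0.16 to 0.0618. The causes were not tested. The depth of 30 to 68 cells per embryo limits genes of low level, and the 444 cells and the range of 5000 UMIs or more were chosen after seeing the data.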
